A study of Homo sapiens with 8 samples.

Results

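The SERPINB cluster on chromosome 18 is a run of 10 genes (SERPINB5, SERPINB12, SERPINB13, SERPINB4, SERPINB11, SERPINB3, SERPINB7, SERPINB2, SERPINB10 and SERPINB8, in this order along the plus strand) that spans 543 kb, chr18:63476958-64019779 on GRCh38. Chromatin accessibility across it was followed by ATAC-seq, in which the Tn5 transposase inserts sequencing adapters into open DNA, in MCF10A cells, an immortalized but not transformed human mammary epithelial line that undergoes an epithelial-mesenchymal transition (EMT) under TGFβ1. Wild-type cells received solvent (bovine serum albumin in PBS) or 5 ng/ml TGFβ1 for 6, 24 or 72 h, all in medium with horse serum, EGF, hydrocortisone, cholera toxin and insulin. There were 8 libraries, 2 per condition. The labels put the solvent samples at time 0, whereas the study describes 72 h of solvent. The line is 1 culture model of breast epithelium, without stroma.

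The authors called peaks on both libraries of a condition together, so each condition is represented by 1 list and nothing below has a replicate check or a p-value. Each peak carries an AUC, which sums the significance above the caller's cut-off over the width of the peak, and no peak under an AUC of 200 was kept. An absent peak therefore means that no call passed the authors' limits, and not closed chromatin. The 4 lists held 86209 peaks (solvent), 107656 (6 h), 118433 (24 h) and 116720 (72 h). Peaks sharing at least 1 bp were merged into 126658 regions, of which 41 overlapped a member gene or the 20 kb on either side of it. Of these 41, 18 lay within 3 kb of a transcription start site (TSS) of any annotated gene and 23 lay beyond.

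Because AUC grows with sequencing depth, which is not known here, ratios to solvent were scaled so that regions within 3 kb of a TSS had a median log2 ratio of 0. On that scale all shared regions of the genome had medians of 0.06, 0.12 and 0.15 at 6, 24 and 72 h. Without the scaling every log2 ratio is higher by 0.44, 0.38 and 0.25, so that most of the negative ratios given below turn positive. The identity of the cells was checked at marker promoters. All 8 basal mammary epithelial genes examined (KRT5, KRT14, KRT17, TP63, CDH1, EPCAM, ITGB4 and LAMB3) had a peak within 1 kb of a TSS in every list. Of 6 genes of other cell types, CD3E, ALB, HBB and MYH6 had no such peak. PECAM1 had one in every list (1351, 1987, 2541 and 2492) and PTPRC in the TGFβ1 lists (515, 799 and 1059), and whether this bears on the cluster was not tested.

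Serpins are proteins that trap proteases by offering a reactive loop as bait and then folding around the bound enzyme, although several members of the family have lost this activity. Clade B serpins lack a classical secretion signal and act mostly inside cells, where they protect against proteases that leak from lysosomes or granules. The chromosome 18 genes arose by duplication and are known from stratified and glandular epithelia, in particular from skin, where several are used as markers of keratinocyte differentiation or of squamous carcinoma.

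The main pattern was a set of regions, both strong and weak, with a peak in every list, and additional weak ones in the TGFβ1 lists. A peak was present in 24 of the 41 regions in solvent and 35, 39 and 35 after 6, 24 and 72 h. All 24 regions with a solvent peak had a peak in every list. Of the other 17, 8 had a peak in every TGFβ1 list, 3 at 6 and 24 h, 3 at 24 h only, 2 at 72 h only and 1 at 24 and 72 h. The share of regions with a peak in every list was 58.5% in the cluster and 62.6% among all regions.

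No region of the cluster lost its peak: 0 of 24 at 6, 24 and 72 h, where 0.714%, 1.86% and 3.44% of all solvent regions did. With shares this small, 0 of 24 does not set the cluster apart. With lists of equal length, 1 region was lost at 6 h and 1 at 72 h. At 6 h, 11 of the 35 regions with a peak had none in solvent (31.4%), against 23% over all regions with a peak. At 24 h it was 15 of 39 (38.5%), against 30.2%. At 72 h it was 11 of 35 (31.4%), against 30.1%, so the 72 h share was close to the background. The shares at 6 and 24 h were higher than the background, but with so few regions this is not read as an excess. The additional regions were weak. Their median AUC was 295, 313 and 339 after 6, 24 and 72 h, near the 304, 348 and 361 of such regions genome-wide, and their number depended on the list lengths. When every list was cut to its 86209 strongest peaks, 2 regions without a solvent peak were left at each time in place of 11, 15 and 11.

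Among the 24 regions with a peak in every list, the median scaled log2 ratio to solvent was 0.00, 0.02 and 0.05 after 6, 24 and 72 h. A scaled AUC at least 1.5-fold above solvent was found in 3 regions at 6 h (12.5%, against 11.7% of all shared regions), in 4 at 24 h (16.7%, against 20.3%) and in 6 at 72 h (25%, against 22.9%). A scaled AUC at least 1.5-fold below solvent was found in 1 region at 6 h (4.17%, against 1.4%) and in none at 24 h and 72 h, where the background was 3.22% and 3.9%. With so few regions these shares are close to the background. The 11 regions with a solvent AUC of at least 1000 had log2 ratios between -0.20 and 0.32 at 72 h, and the 13 weaker ones between -0.09 and 1.10, ranges that overlap. All 6 regions past 1.5-fold at 72 h were among the weaker ones. Weak regions were higher across the genome too: regions within 20% of the solvent AUC of the weakest cluster region (208) had a median of 0.70 at 72 h, and those near the SERPINB5 promoter (3160) a median of -0.06.

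**Figure D1:**
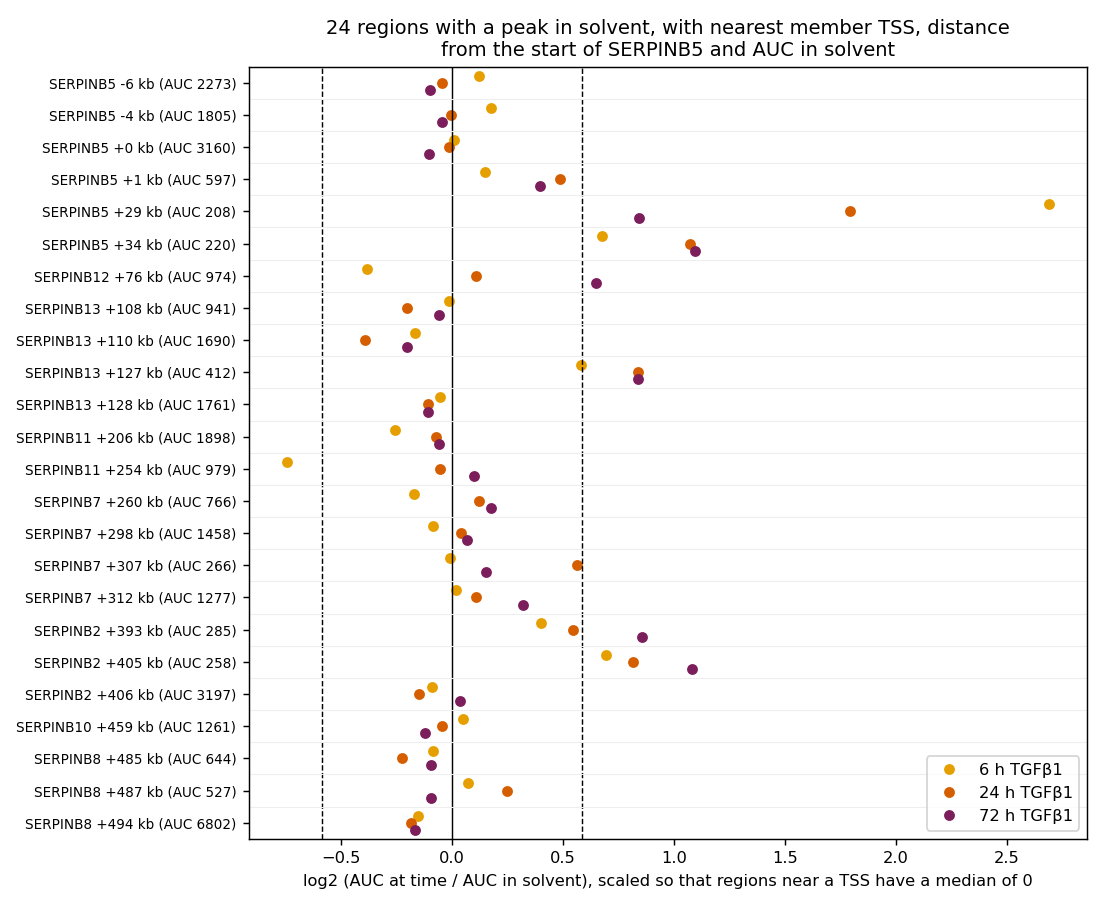
Scaled log2 ratio of the AUC to solvent (horizontal axis) at 6, 24 and 72 h for the 24 regions with a peak in every list, in chromosomal order (vertical axis), each with its nearest member TSS, its distance from the start of SERPINB5 and its solvent AUC. Dashed lines mark 1.5-fold in either direction; 1 point stands for 1 pooled list, and the point farthest to the right is the region beyond the end of SERPINB5 at 6 h (2.69).

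The shares near to and far from a TSS were ordered differently in the cluster and in the genome. Within 3 kb of a TSS, the share of regions with no solvent peak was 6 of 14 at 6 h (42.9%), 9 of 17 at 24 h (52.9%) and 6 of 14 at 72 h (42.9%), whereas over all regions near a TSS it was 16.2%, 20% and 18.2%. Beyond 3 kb the shares were 23.8%, 27.3% and 23.8% in the cluster and 26.9%, 35.7% and 36.3% genome-wide. Genome-wide, then, new peaks made up a larger share far from start sites, and in the cluster a larger share near them. The counts are small, and with lists of equal length too few regions were left to compare them. The 8 regions near a TSS with a solvent peak had median log2 ratios of -0.05, -0.10 and -0.08.

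**Figure D2:**
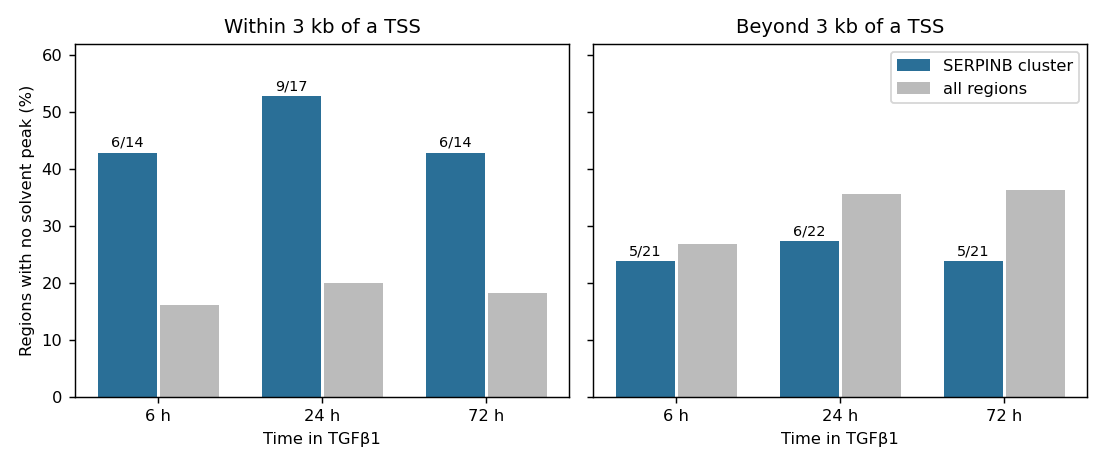
Share of regions with a peak at each time that had none in solvent (vertical axis, percent), within 3 kb of a TSS (left) and beyond (right), for the cluster and for all regions. Numbers above the cluster bars are counts of regions; near a TSS the cluster bars stand at 42.9%, 52.9% and 42.9%, above the 16.2%, 20% and 18.2% of all regions.

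SERPINB5 encodes maspin, a non-inhibitory clade B serpin made by normal mammary epithelium and often silenced in breast carcinoma. It had the most regions of any member together with SERPINB11, 10 each. Its promoter region (chr18:63476489-63477561, over the TSS and first exon) had an AUC of 3160 in solvent and 4319, 4070 and 3493 after 6, 24 and 72 h. The corresponding scaled log2 ratios were 0.01, -0.01 and -0.10, so the promoter stayed close to solvent on that scale at all times. A pair of intergenic regions upstream, 4081 and 5737 bp from the TSS, was also strong in every list. The nearer (chr18:63472260-63472877) had 1805, 2773, 2338 and 2073, and the farther (chr18:63470223-63471221) had 2273, 3359, 2872 and 2517. Both were thus highest at 6 h in raw AUC, with scaled log2 ratios of 0.18 and 0.12 at that time and of -0.05 and -0.10 at 72 h.

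Introns of SERPINB5 gave weaker regions. The one closest to the promoter (chr18:63477806-63478415) had an AUC of 597 in solvent and 900, 1090 and 933 after 6, 24 and 72 h, or scaled log2 ratios of 0.15, 0.49 and 0.40. Further in, chr18:63479372-63479743 had a peak at 24 h only (438), chr18:63479961-63480205 had 262 at 6 h and 313 at 24 h, and chr18:63482196-63482606 had 455, 363 and 351 at the 3 times. None of these last 3 had a solvent peak, and 24 h was the only list with all of them.

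The most distinctive time course of the cluster lay at the other end of the gene. A 1299 bp intergenic region beginning 446 bp beyond the 3′ end of SERPINB5 (chr18:63505532-63506830) had an AUC of 208 in solvent and 1824, 939 and 442 after 6, 24 and 72 h. Its scaled log2 ratios were 2.69, 1.80 and 0.84, which means the highest value came at 6 h and each later list was lower. The −log10 p at its summit was 5.81 in solvent and 8.73, 7.74 and 6.83 after 6, 24 and 72 h, in the same order. Because the AUC sums significance over the peak, this order is not a separate check. The solvent AUC lies just above the authors' minimum of 200, so the ratios are taken against a value at that floor. Regions of similar solvent AUC (within 20%) had a median log2 ratio of 0.42, 0.66 and 0.70 after 6, 24 and 72 h. Its bases around the 6 h summit (chr18:63506140-63506340, 100 on either side, plus strand, GRCh38) are shown because no other cluster region with a solvent peak had so high a ratio; they held none of the motifs searched, so no letter is in capitals.
SERPINB5 downstream: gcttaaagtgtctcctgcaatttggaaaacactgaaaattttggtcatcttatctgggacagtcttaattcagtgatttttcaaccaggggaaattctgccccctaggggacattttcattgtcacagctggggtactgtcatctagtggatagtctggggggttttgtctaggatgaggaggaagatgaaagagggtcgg

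A weaker region 6275 bp beyond the gene end (chr18:63511361-63511649) had another time course. Its AUC was 220 in solvent and 478, 602 and 559 after 6, 24 and 72 h, with scaled log2 ratios of 0.68, 1.07 and 1.10. It showed no decline between 24 and 72 h on the scaled values. Regions of similar solvent AUC to this one had medians of 0.40, 0.63 and 0.67, and its solvent AUC is also near the floor. Still farther, chr18:63518529-63518721 had no solvent peak and an AUC of 281, 254 and 339. The summed AUC over all SERPINB5 regions was 8263 in solvent and 14650, 13279 and 10707 after 6, 24 and 72 h, a scaled log2 ratio of 0.38, 0.30 and 0.13.

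SERPINB2 encodes plasminogen activator inhibitor 2, which blocks the urokinase and tissue plasminogen activators. Its strongest region by far was intronic (chr18:63882449-63883211), with an AUC of 3197 in solvent and 4077, 3754 and 3888 after 6, 24 and 72 h. The scaled log2 ratios were -0.09, -0.15 and 0.04, all close to 0. Just beside it, a weak intronic region (chr18:63881967-63882338) had 258, 567, 590 and 647, with ratios of 0.69, 0.81 and 1.08. A strong and a weak region thus lay side by side with different ratios. Similarly weak regions elsewhere had a median of 0.58 at 72 h.

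Upstream of the SERPINB2 gene as GENCODE draws it, the same direction was seen in a pair of neighbouring regions. The one 1938 bp before the first annotated TSS (chr18:63869424-63869754) had no solvent peak and an AUC of 295, 455 and 719 after 6, 24 and 72 h. Its neighbour at 1520 bp (chr18:63869892-63870172) had 285 in solvent, then 511, 541 and 613, with ratios of 0.40, 0.54 and 0.86. Both were highest at 72 h. Regions of similar solvent AUC to this neighbour had medians of 0.29, 0.50 and 0.51. The RefSeq promoter of SERPINB2 (chr18:63887455-63887754), which belongs to a later start site, overlapped no peak in any list. A region 806 bp from a GENCODE start of SERPINB2 (chr18:63888565-63888775) had 390 at 6 h, 207 at 24 h and no peak in solvent or at 72 h. Over the 3 regions within 3 kb of a SERPINB2 TSS the summed AUC was 285, 1196, 1203 and 1332, a scaled log2 ratio of 1.63, 1.70 and 1.98. These sums are not a fold change of the same regions, since 2 of the 3 had no solvent peak. The 1 region that had one gave the 0.40, 0.54 and 0.86 above. The whole window gave 0.20, 0.19 and 0.40.

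The region 1938 bp upstream and an intronic region of SERPINB7 described next were the strongest at 72 h among those with no solvent peak, and were the only such regions present at 72 h when all lists were cut to equal length. Their summit windows (chr18:63869520-63869720 and chr18:63762566-63762766, plus strand, GRCh38) are therefore printed, and neither held a motif that was searched.
SERPINB2 upstream: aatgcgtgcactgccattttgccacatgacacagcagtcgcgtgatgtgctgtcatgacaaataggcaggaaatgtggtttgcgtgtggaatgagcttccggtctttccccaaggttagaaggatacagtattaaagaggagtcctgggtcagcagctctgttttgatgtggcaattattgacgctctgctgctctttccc
SERPINB7 intron: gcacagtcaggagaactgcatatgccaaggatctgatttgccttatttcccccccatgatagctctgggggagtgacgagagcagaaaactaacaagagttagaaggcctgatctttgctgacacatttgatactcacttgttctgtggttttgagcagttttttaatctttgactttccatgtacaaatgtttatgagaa

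SERPINB7 (megsin) is expressed in the upper layers of the epidermis, and its loss causes a palmoplantar keratosis. The intronic region (chr18:63762419-63762862) had no solvent peak and an AUC of 231, 663 and 883 after 6, 24 and 72 h, so each later list was higher. SERPINB7 has several start sites. The earliest RefSeq promoter (chr18:63752807-63753106) overlapped no peak. The region over the next start (chr18:63775008-63775697) had 1458 in solvent and 1865, 1953 and 1811 after 6, 24 and 72 h, with scaled log2 ratios of -0.09, 0.04 and 0.07. Farther on, the region over the last start (chr18:63777697-63777872) had no peak in solvent or at 6 h and an AUC of 303 at 24 h and 302 at 72 h. The peak calls at these starts therefore differed: 1 had a peak in every list, and the other was listed from 24 h on, although at AUCs not far above 200. With lists of equal length the smallest AUC kept was 444 at 24 h and 426 at 72 h, so the last start had no peak in any list. The difference thus depends on list length.

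Both of these SERPINB7 starts carried an AP-1 motif at the summit, and their summit windows (chr18:63775302-63775502 and chr18:63777686-63777886, plus strand, GRCh38) are shown with that motif in capitals. AP-1 is the family of JUN and FOS dimers.
SERPINB7 start in every list: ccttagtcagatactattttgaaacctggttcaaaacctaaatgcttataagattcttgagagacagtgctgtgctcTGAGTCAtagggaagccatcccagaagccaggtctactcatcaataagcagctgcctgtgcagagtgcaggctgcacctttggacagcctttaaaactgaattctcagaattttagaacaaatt
SERPINB7 start from 24 h: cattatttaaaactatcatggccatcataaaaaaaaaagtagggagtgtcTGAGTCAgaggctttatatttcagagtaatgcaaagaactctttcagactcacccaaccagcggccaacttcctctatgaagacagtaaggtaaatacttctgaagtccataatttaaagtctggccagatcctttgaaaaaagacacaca

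Other regions within SERPINB7 were intronic. The region chr18:63788525-63788985 had 1277, 1756, 1794 and 1893, with ratios of 0.02, 0.11 and 0.32. A weak one, chr18:63783453-63783671, had 266, 359, 512 and 351. The region chr18:63779472-63779719 had no solvent peak and 306, 270 and 284. Intergenic regions before the gene also fell in its window and are shared with the SERPINB11 window. Of these, chr18:63736901-63737233 had 766, 924, 1086 and 1028, and chr18:63739033-63739262 had no solvent peak and 339, 398 and 281. At 72 h the SERPINB7 window held 4 regions with no solvent peak, which enter its sum, and 0 regions raised 1.5-fold. In sum the SERPINB7 window had an AUC of 3766 in solvent and 5781, 6978 and 6832 after 6, 24 and 72 h, a scaled log2 ratio of 0.18, 0.51 and 0.61. At 72 h this was the highest ratio of the 8 members that had a solvent peak, and it was 0.32 to 0.86 under the 9 alternatives for which the sum was computed. It was not the highest under all of them: SERPINB2 was higher with an AUC of at least 400 (0.65 against 0.46) and with lists of equal length (0.40 against 0.32), and SERPINB12 with gene bodies alone (0.65 against 0.63).

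SERPINB3 and SERPINB4, the squamous cell carcinoma antigens, are inhibitors of cysteine cathepsins and of cathepsin G and chymase, respectively. No solvent peak fell in the window of either gene. The start of SERPINB3 (chr18:63661834-63662093) had no solvent peak and an AUC of 346, 382 and 406 after 6, 24 and 72 h. The start of SERPINB4 had no peak in any list. The other regions in these windows also lie in introns of SERPINB11, which overlaps SERPINB3 on the opposite strand: chr18:63648333-63648540 had 242 at 24 h only, chr18:63676637-63676831 had 273, 380 and 213, and chr18:63677964-63678141 had 267 at 24 h only. Summed, SERPINB3 had 0, 619, 1271 and 618 and SERPINB4 had 0, 346, 624 and 406, with every SERPINB4 region shared with SERPINB3. No ratio was formed against the missing solvent values.

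These genes are near-identical copies. SERPINB3 with 3000 bp upstream aligned over 100% of its length to SERPINB4 at 94.9% identity, and the region at the start of SERPINB3 aligned over 260 of 260 bp at 98.5% identity to chr18:63644197-63644456 at the start of SERPINB4. Stretches of 100 bases that occur elsewhere on the chromosome made up 7.53% of SERPINB3 and 7.2% of SERPINB4, against 0% to 2.14% of the other members. The authors kept reads with a mapping quality over 30, so reads that fit both copies equally may have been dropped. The study sequenced longer read pairs than these stretches, so the percentages are not shares of reads lost. Accessibility at the starts of the pair is uncertain for this reason, and the effect was not tested. The 300-base RefSeq promoters (chr18:63661844-63662143 and chr18:63644207-63644506, minus strand, GRCh38.p14, written along the gene) are shown because they differ at only 4 positions, marked in capitals.
SERPINB3 promoter: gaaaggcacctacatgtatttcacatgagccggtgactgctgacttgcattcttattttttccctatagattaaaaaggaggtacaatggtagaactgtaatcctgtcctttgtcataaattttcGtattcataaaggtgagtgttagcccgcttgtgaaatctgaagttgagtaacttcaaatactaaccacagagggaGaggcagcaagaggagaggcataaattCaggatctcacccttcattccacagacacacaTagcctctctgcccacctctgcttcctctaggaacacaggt
SERPINB4 promoter: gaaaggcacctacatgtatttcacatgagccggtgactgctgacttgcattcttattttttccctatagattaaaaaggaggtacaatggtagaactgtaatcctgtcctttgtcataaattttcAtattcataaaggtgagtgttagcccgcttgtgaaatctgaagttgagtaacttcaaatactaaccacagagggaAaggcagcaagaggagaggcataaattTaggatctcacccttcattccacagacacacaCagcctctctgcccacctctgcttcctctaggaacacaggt

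SERPINB13 (headpin) inhibits cathepsins L and K and is expressed in keratinocytes. The region over its start (chr18:63586462-63587413) had an AUC of 1690 in solvent and 2044, 1675 and 1742 after 6, 24 and 72 h. The scaled log2 ratios were -0.17, -0.39 and -0.20, the lowest 72 h ratio among the 24 shared regions. The region 1636 bp before the start (chr18:63584905-63585353) had 941, 1264, 1065 and 1071, or -0.01, -0.20 and -0.06. At the other end of the gene, a region overlapping a coding exon went the other way, with 412, 836, 958 and 873 and ratios of 0.58, 0.84 and 0.84. The region 140 bp beyond the gene end (chr18:63604780-63605486) had 1761, 2304, 2126 and 1939, with ratios of -0.05, -0.11 and -0.11. Within 1 gene the start and the exon thus had ratios of opposite sign at every time, although without scaling the start was above solvent at 6 and 72 h. Regions of similar solvent AUC to the exon region had medians of 0.20, 0.34 and 0.37. For the start region such medians were 0.01, 0.03 and 0.06, so part of the contrast is shared with regions of like strength. The window as a whole gave -0.02, -0.10 and -0.02.

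SERPINB11 and SERPINB12 lie between the better known members. SERPINB11 has many non-functional alleles in humans, and SERPINB12 inhibits trypsin-like proteases. No list had a peak within 3 kb of a SERPINB12 start. The intronic SERPINB12 region chr18:63552928-63553532 had an AUC of 974 in solvent and 1014, 1366 and 1814 after 6, 24 and 72 h, with scaled log2 ratios of -0.38, 0.11 and 0.65, so its sign differed between 6 and 72 h. A region 4290 bp beyond SERPINB11 (chr18:63730723-63731181) had 979, 795, 1227 and 1243, with ratios of -0.74, -0.05 and 0.10. Its unscaled AUC was below solvent at 6 h, which of the other shared regions was seen only at the start of SERPINB13 at 24 h. These last 2 regions were singled out after their values were seen.

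The strongest SERPINB11 region, intronic (chr18:63683156-63683650), had 1898, 2155, 2352 and 2162, with ratios of -0.26, -0.07 and -0.06. Near start sites of the gene there were only the 24 h peak named above and chr18:63708681-63709040, which had 398 at 72 h only. The SERPINB11 window summed to a scaled log2 ratio of -0.03, 0.42 and 0.48 and that of SERPINB12, which shares 2 of its 3 regions with SERPINB13, to -0.18, -0.19 and 0.11. At 72 h the SERPINB11 sum included 5 regions with no solvent peak.

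SERPINB8, an inhibitor of furin, had the region of largest AUC in the cluster, over its promoter (chr18:63969896-63971689). The AUC was 6802 in solvent and 8316, 7789 and 7195 after 6, 24 and 72 h, and the scaled log2 ratios were -0.15, -0.18 and -0.17. Strong regions of similar solvent AUC had medians of -0.12, -0.15 and -0.13, so the promoter moved with regions of its strength. A region inside the gene (chr18:63975176-63975378) had 293 at 6 h and 278 at 24 h and no peak in solvent or at 72 h. SERPINB10 (bomapin), a serpin of haematopoietic cells, had no region within 3 kb of its start in any list. Its own region, at the 3′ end (chr18:63935997-63936799), had 1261, 1775, 1592 and 1374, with ratios of 0.05, -0.04 and -0.12.

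Pooled over the cluster, motifs at the summits occurred about as often as in other regions. AP-1 (TGACTCA or TGAGTCA) was found within 100 bp of the summit in 13 of the 41 regions (31.7%), against 32.3% of all regions. Within 3 kb of a TSS it was in 6 of 18 (33.3%, against 22.3%), and beyond in 7 of 23 (30.4%, against 37.5%). These differences go in opposite directions and rest on few regions. Among the 17 regions with no solvent peak it was 6 (35.3%), against 35.7%. The E-box CACCTG (or CAGGTG), bound by SNAIL and ZEB proteins, was in 6 regions (14.6%, against 17.9%), the C/EBP motif TTNNGCAA in 4 (9.76%, against 12.6%) and the SMAD palindrome GTCTNGAC in 1 (2.44%, against 1.35%). The p53/p63 double core was in none, and in 0.505% of all regions. Both strands were searched, and none of the motifs contains another. RefSeq promoters of 300 bases were matched for 8 of the 10 members, with 11 entries. AP-1 was in 4 of the 11 (at SERPINB13, at 2 of the 3 SERPINB7 starts and at SERPINB8), against 4.95% of 35116 promoters. These 4 entries all overlapped a cluster region, whereas the 4.95% covers promoters with or without a peak. The shares are therefore not like for like. The 2 SERPINB7 matches were also counted at the summits above. With so few entries no excess is read from this. A match is a run of letters and not evidence of binding.

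Genes that act with these serpins were examined with the same windows. Of the proteases, PLAU (urokinase) had ratios of 0.36, 0.72 and 0.93, and CTSS (cathepsin S), with 1 region, had 0.15, 0.38 and 1.00. PLG (plasminogen) had 0.38, 0.60 and 0.62, a 72 h ratio slightly above that of SERPINB7. PLAT (tissue plasminogen activator) had 0.26, 0.37 and 0.33. At 72 h PLAUR (the urokinase receptor) had 0.18, CTSK (cathepsin K) 0.12 and CTSV (cathepsin V) 0.17. CTSL (cathepsin L) had 0.06, 0.13 and -0.02 and FURIN at 0.10, -0.06 and -0.08. CTSG, a target of SERPINB4, had peaks at 24 and 72 h only, and CMA1 (chymase) had no region. The other clade B serpins examined, SERPINB1, SERPINB6 and SERPINB9 on chromosome 6, had 72 h ratios of 0.25, 0.06 and -0.05. SERPINE2, also a urokinase inhibitor, had 0.04, 0.24 and 0.35 after 6, 24 and 72 h.

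The ordering of the members at 72 h was SERPINB7 (0.61), SERPINB11 (0.48), SERPINB2 (0.40), SERPINB5 (0.13), SERPINB12 (0.11), SERPINB13 (-0.02), SERPINB10 (-0.12) and SERPINB8 (-0.16). The sums include regions with no solvent peak, so they are not fold changes of the same regions. At 72 h SERPINB7 had 4 such regions and SERPINB11 had 5, and neither window had a region raised 1.5-fold. SERPINB2 had 1 and SERPINB5 had 2, each with 2 regions raised. Without replicates the spread around these summed ratios is not known, neighbours in this order cannot be told apart, and the order depended on the processing. With lists of equal length SERPINB2 came first (0.40), ahead of SERPINB7 (0.32), and SERPINB11 was at 0.03. Under scaling by all shared regions SERPINB5 (-0.02) and SERPINB12 (-0.03) were below 0. At 6 h the order was different, with SERPINB5 (0.38) and SERPINB10 (0.34) highest. The SERPINB10 value comes from the intronic SERPINB2 region with 390 at 6 h, which lies in its flank, and its own region at the 3′ end had 0.05. In the 1 Mb on either side of the cluster, 10.2%, 14% and 18% of the regions with a peak at 6, 24 and 72 h had no solvent peak, and summed 72 h ratios of nearby genes ran from -0.15 (ZCCHC2) to 0.21 (VPS4B, above SERPINB5), with BCL2 at 0.02 and KDSR at -0.05.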

How the data were processed

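ATAC-seq was performed on 8 MCF10A libraries, 2 per condition. Per the methods of the study and the submitters' processing notes, the authors trimmed reads (Trimmomatic 0.38), mapped them to GRCh38 (Bowtie2 2.4.5), removed duplicates (Picard), kept pairs with a mapping quality over 30 (SAMtools 1.4.1) and called peaks with Genrich 0.5 on both replicates together, at an adjusted p below 0.01 and an AUC over 200, leaving out ENCODE blacklisted regions. The deposited peak lists give the AUC score of each peak, the −log10 p at its summit as the authors' caller wrote it, and the deposited summit offset. The list names gave the condition of each list. The lists hold no reads, so the depth reached is unknown, and they pool replicates.

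Peaks of the 4 lists were merged at 1 bp, and the AUC was summed per region and list. Log2 ratios to solvent were shifted by the median over regions within 3 kb of a GENCODE 44 TSS with a peak in both lists (0.44, 0.38 and 0.25 at 6, 24 and 72 h). A region was called at 1.5-fold. Python 3.11.15 with numpy 2.4.6 and pandas 2.3.3 was used, and blastn 2.17.0 for alignments. The steps were tested on simulated data. Motifs were searched within 100 bp of the strongest summit and in RefSeq promoters (250 bases before to 50 after a start, GRCh38.p14).

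Members and lists were chosen with earlier results of these data known. Regions were named if within 3 kb of a member TSS, among the 5 of largest AUC, the 5 highest or 5 lowest 72 h ratios, or the 5 largest at 72 h without a solvent peak; others were named after their values were seen. A gene and a sequence are not reported here. Alternatives changed the scaling, AUC minimum, list length, peak measure, windows, fold and overlap.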

Additional observations from a re-analysis of the deposited data

How the results depend on the processing

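No paired analysis of these lists was possible because the replicates of each condition were pooled into 1 list before deposit. For the same reason no replicate could be left out. The study itself tested accessibility changes from read counts of the replicates, and those results were not used here. Numbers below are regions, in the order 6, 24 and 72 h unless a time is named, and the cause of each move was not tested. Without scaling, the median log2 ratios were 0.44, 0.40 and 0.30, with 7 raised at 6 h, 8 raised at 24 h and 0 lowered at 6 h. Scaling by all shared regions gave medians of -0.10 at 24 h and -0.094 at 72 h. With an AUC of at least 400, 5, 8 and 7 regions had no solvent peak, 1, 1 and 2 were raised and 1 was lowered at 24 h. With lists of equal length, 2, 2 and 2 had no solvent peak, 1 was lost at 6 h and 1 at 72 h, and 1 was lowered at 24 h. The AUC per base gave 2 raised at 24 h and 2 at 72 h, with 2 lowered at 6 h and 1 at 72 h. With the −log10 p at the summit in place of the AUC, a scale on which ratios are compressed, 0 were raised at any time and 0 were lowered at 6 h. Gene bodies without flanks held 13 regions with a peak in solvent and 21, 25 and 21 under TGFβ1, with 1, 2 and 3 raised and 0 lowered at 6 h. Flanks of 50 kb gave 7 raised at 24 h and 1 lowered at 72 h. A 2-fold limit gave 1, 2 and 2 raised and 0 lowered at 6 h. An overlap of 50% of both peaks gave 2, 1 and 1 lost, with 1 lowered at 24 h and 1 at 72 h. Scaling within bins of AUC, the strongest peak per region and, chosen after seeing the data, a scaled AUC of at least 200 moved none of these counts by over 1.5 times and no median by over 0.1. Over all alternatives the medians ranged from -0.06 to 0.44 at 6 h, -0.10 to 0.40 at 24 h and -0.094 to 0.30 at 72 h.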

Other observations

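Between the SERPINB7 and SERPINB2 windows, more than 20 kb from either gene, lay 6 further intergenic regions that belong to no member by the rule used. The region chr18:63832512-63832939, 38.8 kb before SERPINB2, had no solvent peak and an AUC of 203, 385 and 891 after 6, 24 and 72 h. That is above every region without a solvent peak inside the member windows at 72 h. Its neighbour chr18:63831133-63831380 had 309 in solvent and 580, 691 and 819 under TGFβ1, with scaled log2 ratios of 0.46, 0.78 and 1.16. Both were highest at 72 h.

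The region nearest to SERPINB2, chr18:63850062-63850386 (21.3 kb before the gene), had 642, 807, 707 and 491, and its scaled log2 ratios were -0.11, -0.24 and -0.64. The next one, chr18:63848217-63848446, had 264, 405, 415 and 240, or 0.18, 0.27 and -0.38. These were below solvent at 72 h on both the raw and the scaled AUC, whereas the pair farther upstream was above it. The remaining regions had no solvent peak: chr18:63844328-63844526 had 214, 250 and 286, and chr18:63837686-63837864 had 215 at 72 h only. They were looked at after the member regions, they have 1 pooled list per condition, and no test was made.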
